A study of Rattus norvegicus with 6 samples.

Results

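The p53 target genes described here are Mdm2, Ccng1, Gadd45a, Phlda3, Bax, Bbc3, Zmat3, Aen, Ddb2 and Perp, chosen by name from a table of 30957 rat genes. Of the 10 names, 9 matched a row, 1 row each, and all 9 passed the filter on low counts that left 12261 genes for testing. Bbc3, the BH3-only death protein Puma, matched no row and was not analysed here. RNA sequencing covered 6 libraries of BRL-3A, an established rat liver cell line, all labelled Sprague-Dawley and liver, with a disease state label of raised blood triglycerides. The group called NC (3 libraries, not spelled out in the labels) was the reference, and the group called si-hnrnpa2b1 (3 libraries) had an siRNA against Hnrnpa2b1; transfection with a lipid reagent lasted 48 h. The sources used here do not give the siRNA sequence, do not state whether NC cells received a control siRNA, and do not describe replicates as separate cultures. The p-values therefore cover the spread among these libraries, which may be technical.

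The transcription factor p53 is held low by Mdm2, a ubiquitin ligase that marks it for degradation, and accumulates after DNA damage and other stresses. It binds paired half-sites in DNA and raises genes that halt the cell cycle, repair DNA, start apoptosis, or feed back on p53 itself. In liver it is studied for its part in the response to genotoxic compounds. Several of its targets, among them Gadd45a and the metabolic regulator Sesn2, are also known to respond to other stress pathways, including that of the transcription factor ATF4.

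The proximal promoters of 4 members are shown because they set Gadd45a and Phlda3, which rose, beside Ccng1 and Aen, which did not pass the test and hold an exact p53 half-site. RefSeq sequences of build GRCr8 covered 6 of the 10 members, from 250 bases before to 50 bases after the annotated gene start; Bax, Bbc3, Zmat3 and Ddb2 had no entry. Capitals mark exact matches to the p53 half-site consensus, which reads the same on both strands, and any half-site with 1 mismatch in the outer 6 bases that lies within 13 bases of an exact match. Another Gadd45a half-site with 1 mismatch, GAGCTAGCGT at 135 to 126 bases before the start, lies farther away and is left in lower case. Each promoter is given in the direction of transcription: Gadd45a is chr4:97486750-97487049 on the minus strand, Phlda3 chr13:49744753-49745052 on the plus strand, Ccng1 chr10:25684827-25685126 on the minus strand and Aen chr1:142224283-142224582 on the plus strand.
Gadd45a: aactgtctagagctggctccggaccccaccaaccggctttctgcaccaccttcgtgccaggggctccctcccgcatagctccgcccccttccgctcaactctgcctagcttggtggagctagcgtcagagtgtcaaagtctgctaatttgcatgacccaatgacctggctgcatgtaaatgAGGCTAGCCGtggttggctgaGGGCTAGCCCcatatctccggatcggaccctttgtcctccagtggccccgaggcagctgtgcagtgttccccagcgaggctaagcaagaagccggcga
Phlda3: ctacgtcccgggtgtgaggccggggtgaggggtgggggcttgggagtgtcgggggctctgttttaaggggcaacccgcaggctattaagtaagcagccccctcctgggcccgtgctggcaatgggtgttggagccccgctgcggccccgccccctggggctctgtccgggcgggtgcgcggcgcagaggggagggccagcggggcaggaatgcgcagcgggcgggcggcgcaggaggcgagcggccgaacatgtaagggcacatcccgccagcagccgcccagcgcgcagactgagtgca
Ccng1: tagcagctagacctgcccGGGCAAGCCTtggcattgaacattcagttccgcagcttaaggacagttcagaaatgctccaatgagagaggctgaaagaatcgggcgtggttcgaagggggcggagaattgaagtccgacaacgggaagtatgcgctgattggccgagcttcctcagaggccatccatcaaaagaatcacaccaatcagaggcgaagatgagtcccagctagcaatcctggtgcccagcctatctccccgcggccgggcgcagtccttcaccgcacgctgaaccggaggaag
Aen: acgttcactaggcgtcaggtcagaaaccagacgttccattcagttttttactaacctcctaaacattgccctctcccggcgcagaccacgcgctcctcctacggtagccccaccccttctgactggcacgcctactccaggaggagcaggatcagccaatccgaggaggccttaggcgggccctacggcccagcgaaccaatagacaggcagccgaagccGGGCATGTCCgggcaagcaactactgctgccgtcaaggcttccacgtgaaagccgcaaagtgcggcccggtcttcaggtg

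An exact half-site was present in 3 of the 6 member promoters, those of Gadd45a, Ccng1 and Aen, and in 7.98% of all 33469 promoters of the same length. With 1 mismatch allowed in the outer 6 bases, the same 3 member promoters matched, against 38.0% of all promoters. The Gadd45a match, GGGCTAGCCC, lay 48 to 39 bases before the start. A second half-site with 1 mismatch stood upstream of it, so that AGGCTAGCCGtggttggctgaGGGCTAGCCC formed a pair with the spacer in lower case. Such a pair, 1 exact half-site and 1 with at most 1 mismatch, 0 to 13 bases apart, was found in 0.350% of all promoters. The Ccng1 match, GGGCAAGCCT, began 232 bases before the start, and the Aen match, GGGCATGTCC, began 30 bases before it. Phlda3, Mdm2 and Perp held no exact match in this window. The promoter of Cdkn1a, the cell-cycle inhibitor p21 and the best-known p53 target, held the pair GAACATGTCTTGACTTGTTC from 201 to 182 bases before its start (chromosome 20). Elements in introns or farther upstream lie outside these windows, and a match describes letters only, not binding.

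Library totals lay between 13374412 and 15224108 counts. Values are in CPM after TMM scaling (trimmed mean of M-values); fold changes are si-hnrnpa2b1 over NC from the quasi-likelihood test of edgeR, its p-values adjusted over 12261 genes (Benjamini-Hochberg), and a gene is said to have risen or fallen where that adjusted p was below 0.05. Hnrnpa2b1 itself gave 953, 1064 and 1025 CPM in NC and 662, 584 and 573 CPM in si-hnrnpa2b1 libraries, a log2 fold change of -0.74 ± 0.06 (SE; edgeR adjusted p = 2.3e-06). Of the hepatocyte markers checked, Alb, Ttr, Apob, Serpina1, Hnf4a and Cyp3a2 were listed at 0 in all 6 libraries, and Tf alone of 10 passed the low-count filter. Markers of stellate cells and fibroblasts summed to 15181 to 15563 CPM in NC and 15083 to 16044 CPM in si-hnrnpa2b1 libraries, led by Col1a1. Of the 9 genes listed 6 were tested: Acta2 and Des rose and 0 fell, beside 5.30% of all tested genes that changed. DESeq2 called 3 of the 6, beside 662 of all 12261 tested genes. An unadjusted edgeR p below 0.05 was found for 3 of the 6, beside 18.3% of all tested genes. Lrat was listed at 0 in all 6 libraries, and Thy1 held 1 count in total. Col1a2 was listed at 0 beside abundant Col1a1, so a gene listed at 0 in this table is given as such and no more. Leukocyte, endothelial and cholangiocyte marker lists, which summed to at most 19.7, 49.3 and 15.03 CPM in any library, held 0 changed genes by edgeR or DESeq2, with 1 gene (Krt7) below an unadjusted p of 0.05. The part of these markers in the results on p53 targets was not tested.

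Among the p53 targets, Gadd45a and Phlda3 rose after si-hnrnpa2b1, by 1.35-fold and 1.19-fold, and 0 fell. In such bulk libraries a change per cell and a change in the share of cells cannot be told apart. Mdm2 was higher in every si-hnrnpa2b1 library but missed the threshold. Ccng1, Aen and Bax differed by less than 7% between group means of the fit, and the 95% intervals of Zmat3, Ddb2 and Perp reached both sides of no change. The 2 of 9 that passed stand beside 5.30% of all tested genes that changed, 2.36% that rose and 2.94% that fell. The list was chosen with earlier results of these data known, so such shares describe its members and do not test the list. An unadjusted p below 0.05 was found for 3 of 9 members and for 18.3% of all tested genes. The groups did not overlap in 3 members (Gadd45a, Phlda3 and Mdm2, each higher after si-hnrnpa2b1), against 23.4% of all tested genes, or 11.5% in that direction. The 9 log2 fold changes ran from -0.54 to 0.94 with a median of 0.09, and 6 were above 0; the median of all tested genes was -0.0015.

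**Figure D1:**
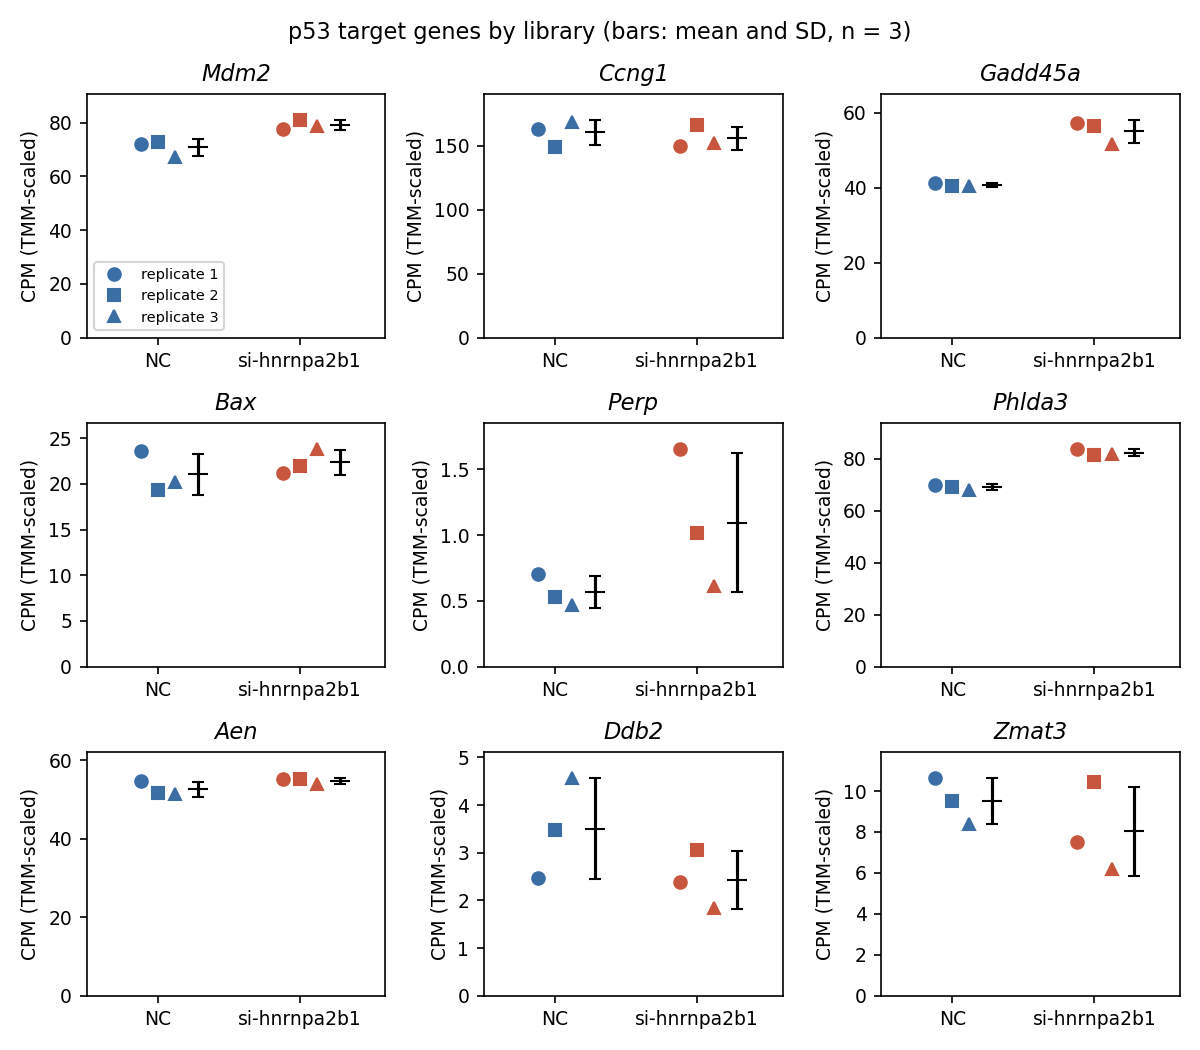
TMM-scaled CPM (vertical axes, each from 0) of the 9 p53 target genes in 3 NC and 3 si-hnrnpa2b1 libraries, with marker shapes for replicate numbers and bars for mean and SD. The groups separate fully for Gadd45a, Phlda3 and Mdm2, and overlap for the other 6.

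Gadd45a encodes a small stress protein that binds the replication clamp PCNA and the kinase Map3k4, and takes part in growth arrest and DNA repair. Its row (ENSRNOG00000005615, chromosome 4, 97782512 to 97784842 of Rnor_6.0) held 41.3, 40.5 and 40.5 CPM in NC and 57.4, 56.4 and 51.7 CPM in si-hnrnpa2b1 libraries. All 3 si-hnrnpa2b1 values lay above all NC values, and the lowest of them belonged to replicate 3. The means were 40.8 ± 0.434 and 55.2 ± 3.06 CPM (SD, n = 3), a log2 fold change of 0.44 ± 0.07 (SE; edgeR adjusted p = 9.2e-04). The coefficient of variation was 1.06% in NC and 5.55% in si-hnrnpa2b1 libraries, against 4.17% and 3.49% from counting alone. The 95% interval of the fold was 1.23 to 1.49. The log2 fold change exceeded that of 97.4% of all tested genes, and the call held in all 16 alternative analyses, with log2 values from 0.41 to 0.48.

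Phlda3, a protein made of little more than a pleckstrin homology domain, competes with the kinase Akt for membrane lipids and so restrains Akt. Its row (ENSRNOG00000009068, chromosome 13, 52588917 to 52592001) held 70.0, 69.0 and 68.0 CPM in NC and 83.8, 81.5 and 81.6 CPM in si-hnrnpa2b1 libraries. The coefficient of variation was 1.46% in NC and 1.58% in si-hnrnpa2b1 libraries, below the 3.21% and 2.86% that counting alone gives. So small a spread is therefore not a measure of reproducibility. The groups were more than 11 CPM apart at their nearest values. The log2 fold change was 0.25 ± 0.06 (SE; edgeR adjusted p = 0.013), with a 95% interval of the fold from 1.10 to 1.29. The adjusted p of edgeR was 0.051 when NC replicate 3 was left out, 0.053 when si-hnrnpa2b1 replicate 1 was, and 0.050, just above the threshold, when si-hnrnpa2b1 replicate 3 was, while the log2 fold change stayed between 0.24 and 0.26 in all 16 alternatives.

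Mdm2, the ubiquitin ligase that closes the feedback loop on p53, did not pass. Its row (ENSRNOG00000006304, chromosome 7, 60719066 to 60743328) held 72.3, 73.0 and 67.3 CPM in NC and 77.7, 81.2 and 78.7 CPM in si-hnrnpa2b1 libraries. Every si-hnrnpa2b1 value lay above every NC value, by a margin of under 5 CPM at the nearest pair. The log2 fold change was 0.16 ± 0.06 (SE; edgeR adjusted p = 0.14, unadjusted p = 0.015), and the adjusted p was 0.13 to 0.38 over the 16 alternatives. The 95% interval of the fold, 1.03 to 1.22, is not adjusted for the number of genes.

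Ccng1 encodes cyclin G1, which recruits the phosphatase PP2A to Mdm2 and thus acts in the same loop. It was the member with the most counts, 13748 over the 6 libraries, and held 164, 149 and 169 CPM in NC and 149.6, 166 and 152 CPM in si-hnrnpa2b1 libraries. The values of both groups were interleaved, with a log2 fold change of -0.04 ± 0.06 (SE; edgeR adjusted p = 0.77). The 95% interval of the fold was 0.892 to 1.06, which leaves out a rise of the size seen for Gadd45a or Phlda3. Its coefficients of variation, 6.21% in NC and 5.76% in si-hnrnpa2b1 libraries, were above the 2.10% and 2.08% that counting alone gives.

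**Figure D2:**
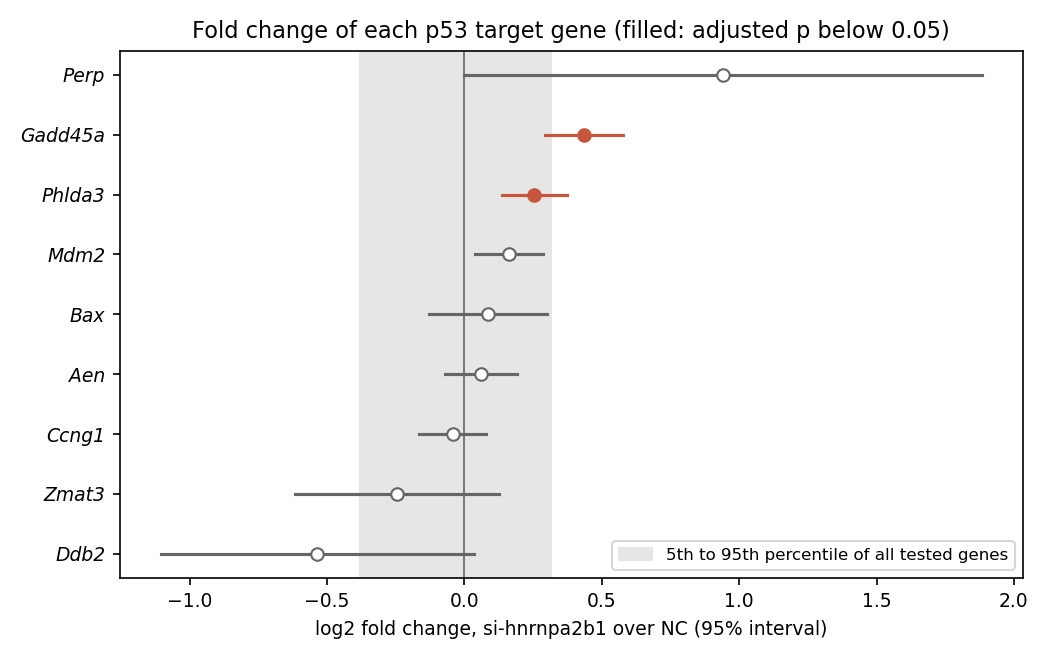
Log2 fold change (horizontal axis) of each p53 target gene with its 95% interval, over a grey band for the 5th to 95th percentile of all 12261 tested genes (-0.38 to 0.32). Filled points mark Gadd45a and Phlda3, the 2 genes with an adjusted p below 0.05; the intervals of Perp and Ddb2 are the widest.

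Bax, Aen and Perp did not pass by edgeR or DESeq2, which gave Perp no adjusted p, and none of the 3 had an unadjusted p below 0.05. Bax, which forms pores in the outer mitochondrial membrane, held 23.6, 19.4 and 20.2 CPM in NC and 21.2, 22.0 and 23.9 CPM in si-hnrnpa2b1 libraries. The groups overlapped, and the 95% interval of the fold was 0.915 to 1.23 (edgeR adjusted p = 0.73). Aen, the apoptosis-enhancing nuclease, held 54.7, 51.7 and 51.4 CPM in NC and 55.3, 55.2 and 54.0 CPM in si-hnrnpa2b1 libraries. NC replicate 1 lay within the range of the si-hnrnpa2b1 values, and the 95% interval of the fold was 0.952 to 1.14 (edgeR adjusted p = 0.68). Perp, a tetraspan membrane protein of desmosomes that p53 induces in apoptosis, rested on 10, 7 and 7 counts in NC and 25, 15 and 9 counts in si-hnrnpa2b1 libraries. The highest NC library exceeded the lowest si-hnrnpa2b1 library in CPM (0.706 against 0.610). The log2 fold change of 0.94 ± 0.44 (SE; edgeR adjusted p = 0.28) became 0.51 without si-hnrnpa2b1 replicate 1.

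Ddb2 and Zmat3 had lower means in si-hnrnpa2b1 libraries, within the spread of replicates. Ddb2, the damage-recognising subunit of UV-DDB in nucleotide excision repair, is a p53 target in human cells, whereas the mouse gene is not induced by p53. It held 2.47, 3.48 and 4.58 CPM in NC and 2.39, 3.05 and 1.83 CPM in si-hnrnpa2b1 libraries, on 257 counts in all. The groups overlapped, and the log2 fold change of -0.54 ± 0.27 (SE; edgeR adjusted p = 0.31) became -0.29 without NC replicate 3. Zmat3, a zinc-finger protein that binds RNA, held 10.7, 9.53 and 8.41 CPM in NC and 7.50, 10.4 and 6.17 CPM in si-hnrnpa2b1 libraries. Replicate 2 of si-hnrnpa2b1 lay among the NC values and the other si-hnrnpa2b1 libraries lay below them. Its log2 fold change was -0.25 ± 0.17 (SE; edgeR adjusted p = 0.50), -0.09 without si-hnrnpa2b1 replicate 3 and -0.48 without si-hnrnpa2b1 replicate 2. Both genes were lowest in si-hnrnpa2b1 replicate 3.

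**Figure D3:**
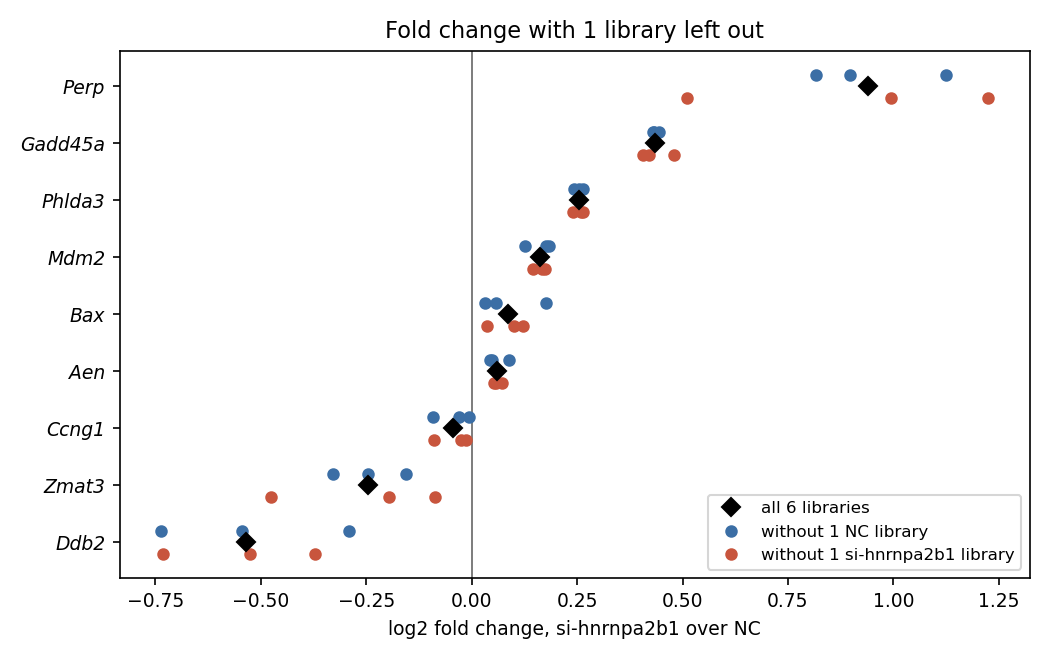
Log2 fold change (horizontal axis) of each p53 target gene from all 6 libraries (diamonds) and with 1 library left out (circles, coloured by the group of the omitted library). Gadd45a stays between 0.41 and 0.48, Phlda3 between 0.24 and 0.26, while Perp spans 0.51 to 1.23.

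Levels per transcript length, in FPKM (scaled to gene length and library total), allow the members to be compared with each other. Phlda3 was the highest at a mean of 53.2 FPKM over 6 libraries, followed by Ccng1 at 38.9, Gadd45a at 38.6, Aen at 22.6, Mdm2 at 17.7, Bax at 15.8, Zmat3 at 6.85, Ddb2 at 1.61 and Perp at 0.442 FPKM. The ranges of neighbours over the 6 libraries overlapped for Ccng1 with Gadd45a and for Mdm2 with Bax, and not for the other 6 neighbouring pairs. In NC libraries Ccng1 exceeded Gadd45a (39.6 ± 2.86 against 32.9 ± 0.619 FPKM), and in si-hnrnpa2b1 libraries the order was turned (38.3 ± 2.38 against 44.4 ± 2.26 FPKM; SD, n = 3). Phlda3 stood above 87.8% of tested genes by mean FPKM, Mdm2 above 64.3% and Perp above 3.7%. Both members that rose were thus among the 3 most abundant. Tagwise biological coefficients of variation from edgeR are fitted values, not the observed spread between replicates. They were 4.89% to 5.46% for the 5 highest members, 7.65% for Bax, 12.5% for Zmat3, 16.8% for Ddb2 and 19.7% for Perp.

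**Figure D4:**
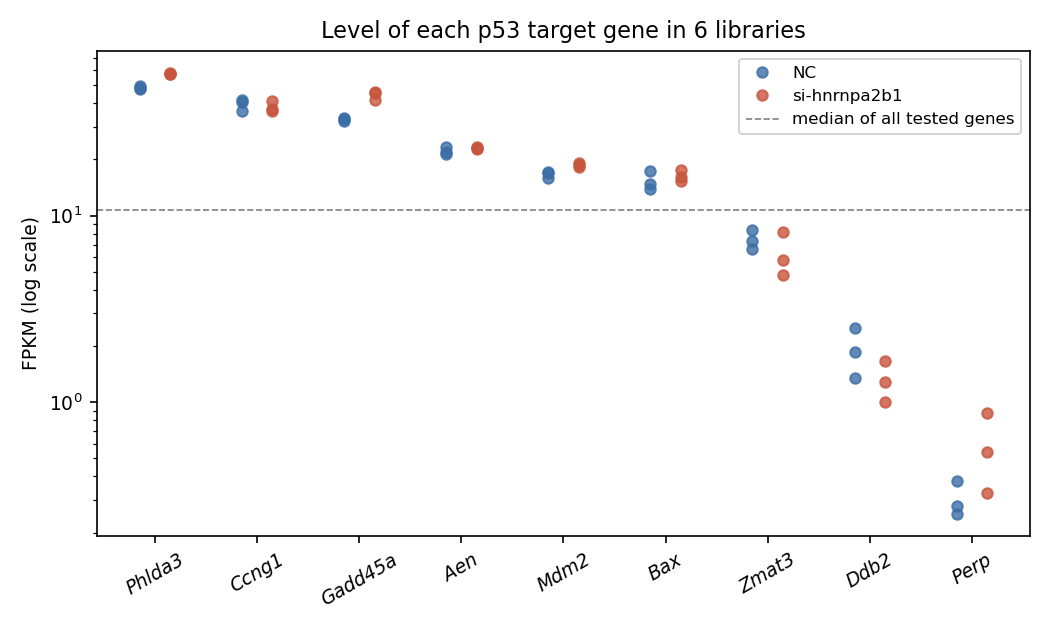
FPKM (log scale) of the 9 p53 target genes in each NC and si-hnrnpa2b1 library, ordered by mean; the dashed line is the median of all tested genes, 10.7 FPKM. From Phlda3 to Bax 6 genes lie above the line, and Zmat3, Ddb2 and Perp below it.

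Around the named targets, 80 further genes of the p53 pathway were sorted by role, of which 75 matched the table, as 76 rows, and 65 rows were tested. Of these 65, 3 rose (Sesn2, Plk2 and Tgfa), 2 fell (Apaf1 and Pml) and 60 did not pass, with a median log2 fold change of 0.01. Their share called, 5 of 65, stands beside 5.30% of all tested genes. It includes Tgfa, which passed the low-count filter only through the si-hnrnpa2b1 libraries, where it was high. Rprm, Pidd1, Triap1, Casp6 and both Nupr1 rows were listed at 0 in all 6 libraries, and Chek1, Tigar, Aldh4a1 and Tnfrsf10a were among the names that matched no row.

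Mdm4, the Mdm2 relative that masks the activation domain of p53, held 36.5, 40.7 and 32.9 CPM in NC and 27.1, 39.1 and 33.8 CPM in si-hnrnpa2b1 libraries (log2 -0.14 ± 0.11, SE; edgeR adjusted p = 0.57). In the list of p53 regulators, 0 of 15 tested genes passed by edgeR and 0 by DESeq2, beside 5.30% of all tested genes by edgeR. An unadjusted edgeR p below 0.05 was found for 3 of the 15, beside 18.3% of all tested genes. The smallest adjusted p values in that list were those of Npm1, a nucleolar protein that binds Arf and Mdm2 (log2 0.16, edgeR adjusted p = 0.096), and of the acetyltransferase Crebbp (log2 -0.15, edgeR adjusted p = 0.12). Without NC replicate 2, Npm1 passed (edgeR adjusted p = 0.021). Protein levels were not measured here.

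Among 7 tested cell-cycle targets, Plk2, a polo-like kinase induced by stress and serum, rose and the others did not pass. That 1 of 7 stands beside 5.30% of all tested genes that changed. Plk2 held 132, 147 and 130.2 CPM in NC and 168, 167 and 161 CPM in si-hnrnpa2b1 libraries, without overlap (log2 0.27 ± 0.05, SE; edgeR adjusted p = 0.0065). Cdkn1a held 48.0, 43.0 and 40.0 CPM in NC and 45.8, 50.2 and 44.9 CPM in si-hnrnpa2b1 libraries. Its groups overlapped, and the log2 fold change was 0.11 ± 0.08 (SE; edgeR adjusted p = 0.52).

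Of 8 tested metabolic and stress targets, Sesn2, a sestrin that senses leucine and restrains the kinase complex mTORC1, rose and 0 fell. That 1 of 8 stands beside 5.30% of all tested genes that changed. Sesn2 held 75.8, 87.3 and 71.7 CPM in NC and 124, 107 and 104 CPM in si-hnrnpa2b1 libraries, without overlap (log2 0.51 ± 0.08, SE; edgeR adjusted p = 9.2e-04). Its paralog Sesn1 held 12.7 ± 1.46 and 10.2 ± 1.22 CPM (SD, n = 3) and did not pass (log2 -0.32 ± 0.13, SE; edgeR adjusted p = 0.20); it is named here after its values were seen.

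Of 11 tested cell-death targets, Apaf1, the scaffold of the apoptosome, fell and 0 rose. Calls in this list and in the feedback and secreted lists stand beside 5.30% of all tested genes that changed. Apaf1 held 75.6, 80.7 and 74.9 CPM in NC and 67.1, 65.0 and 63.8 CPM in si-hnrnpa2b1 libraries, without overlap (log2 -0.24 ± 0.06, SE; edgeR adjusted p = 0.028). That call was lost by limma on FPKM, with the replicate block and when any 1 library but NC replicate 3 was left out, with adjusted p up to 0.12. Of 8 tested feedback targets, Pml, the organiser of nuclear bodies that is also induced by interferon, fell from 186 ± 6.95 to 157 ± 5.35 CPM (SD, n = 3; log2 -0.24 ± 0.05, edgeR adjusted p = 0.0084). The 9 tested DNA repair targets held 0 changed genes by edgeR and 0 by DESeq2, beside 5.30% of all tested genes by edgeR. Of the 9, 2 were below an unadjusted edgeR p of 0.05, beside 18.3% of all tested genes. Gadd45g was among them (log2 -0.29, edgeR adjusted p = 0.16). Of 7 tested secreted and membrane targets, the ErbB ligand Tgfa rose on 2, 9 and 4 counts in NC and 15, 24 and 31 counts in si-hnrnpa2b1 libraries (log2 2.12 ± 0.49, SE; edgeR adjusted p = 0.019). All NC counts of Tgfa lay below the filter's minimum count of 10. It thus entered the test only through the si-hnrnpa2b1 libraries, where it was high, and its call carries that limit. DESeq2 gave Tgfa no adjusted p. The Tgfa call needed both NC replicates 1 and 3 and both si-hnrnpa2b1 replicates 2 and 3: with any of these left out, the edgeR adjusted p was 0.064 to 0.099. Its log2 fold change was 1.74 without NC replicate 1 and 2.88 without NC replicate 2, and limma on log2(FPKM + 1) without a filter gave an adjusted p of 0.16. The calls of Plk2, Sesn2 and Pml were lost by limma on log2(FPKM + 1) without a filter on low values (adjusted p = 0.065, 0.067 and 0.069) and held in the other 15 alternatives each.

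**Figure D5:**
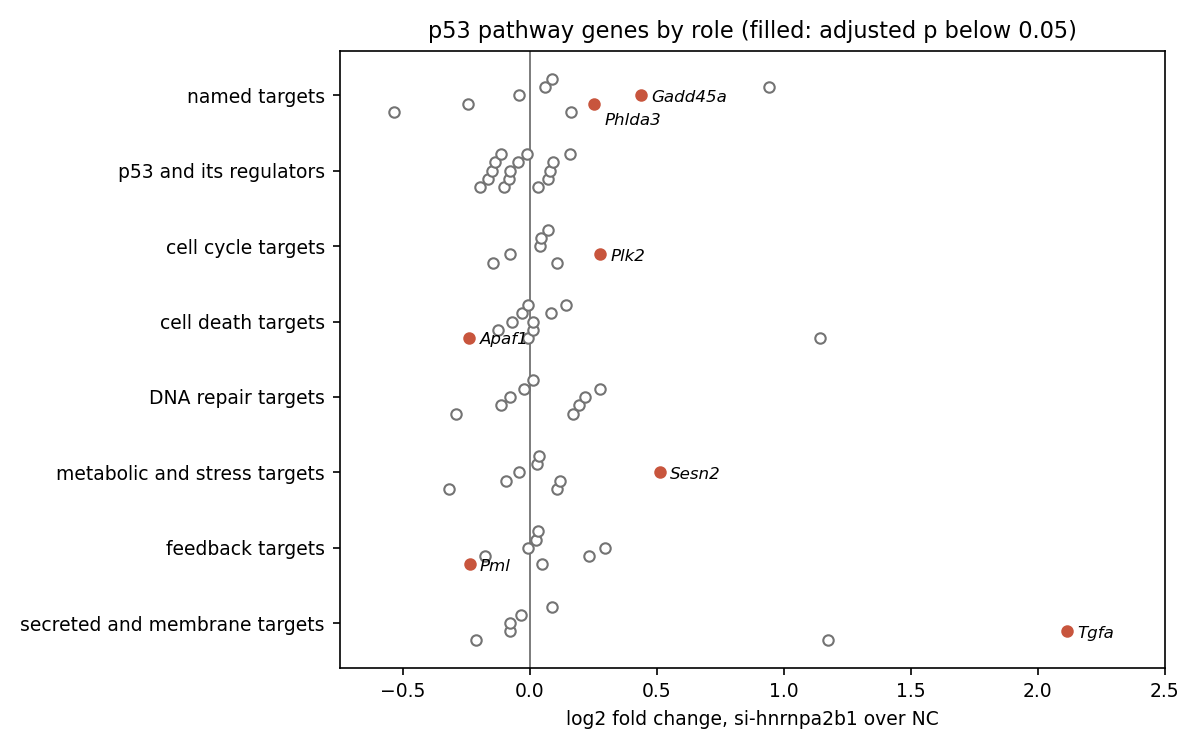
Log2 fold change (horizontal axis) of the named p53 targets and of 65 other tested p53 pathway genes, 1 point a gene, in rows by role. Filled, labelled points passed the test: Gadd45a, Phlda3, Plk2, Sesn2 and Tgfa to the right of 0, Apaf1 and Pml to the left. Tgfa passed the low-count filter only through the si-hnrnpa2b1 libraries.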

How the data were processed

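One table with a count and an FPKM value per gene and library was used; groups and replicate numbers come from the sample titles, and no per-sample column stayed unused (0). HISAT2 2.0.4, StringTie 1.3.0, edgeR and the rat build Rnor_6.0 are named per the submitters' processing notes, with no role or order. The deposited counts are whole numbers, not normalized. The deposited FPKM values equal the count divided by a gene length and the column total. The sources used here do not give the annotation release, counting program or strand setting; 0 of the 9 measured members overlapped another gene model holding more than 0.1 times as many counts.

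The main test was that of edgeR 4.0.16 under R 4.3.3 (filterByExpr with minimum count 10 and minimum total 15, TMM, quasi-likelihood F-test, two-sided, all 6 libraries, Benjamini-Hochberg threshold 0.05); the common biological coefficient of variation was 0.0638. SE is the log2 fold change over the square root of F; 95% intervals follow from it. Alternatives were DESeq2 1.42.0, other scalings and filters, limma 3.58.1 on log2(FPKM + 1) or log2(FPKM + 0.1), a replicate block, and each library left out. The fits were tested on simulated data with the common dispersion for every gene and changes larger than those of Gadd45a and Phlda3. That test therefore does not bear on the calls of these genes. No pair of replicates agreed within sampling noise (chi-square per degree of freedom 2.91 to 6.00).

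The members, lists, tests and naming rule were chosen with earlier results of these data known. Named are all members, Hnrnpa2b1, Mdm4, Cdkn1a and, of each role list, the genes past the threshold or otherwise the 2 with the smallest adjusted p; some genes that the rule names are not reported here. Names were matched by symbol, with 3 older symbols. The half-site was searched as 3 purines, C, 2 of A or T, G and 3 pyrimidines.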

Additional observations from a re-analysis of the deposited data

How the results depend on the processing

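The 9 members kept the sign of their log2 fold change in every alternative run; the rise of Gadd45a kept its side of the threshold too, and no other member crossed it but Phlda3. Phlda3 ranged from 0.24 to 0.26 with 1 library left out and missed the threshold in 3 of those 6 fits. The number of members called was 1 to 2 with 1 library left out and 2 otherwise. All genes called numbered 650, against 379 to 592 with 1 library left out, 308 by limma on log2(FPKM + 1), 293 on log2(FPKM + 0.1) and 119 on log2(FPKM + 1) without a filter. The 5 other pathway genes called became 3 to 5 with 1 library left out, 3 by limma on log2(FPKM + 1) or log2(FPKM + 0.1) and 0 without a filter on low values, where 0.067 was the adjusted p of Sesn2. The causes were not tested. Perp and Tgfa could not be fitted with at least 1 CPM in 3 libraries or a minimum mean FPKM of 0.5, and DESeq2 gave neither an adjusted p. Tgfa therefore could not count among the other pathway genes called in those runs.

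Deviations from the group means correlated at 0.06, -0.0039 and 0.06 between same-numbered libraries, and at -0.09 to 0.04 between libraries of unlike number. All were small, and the numbers were not taken as pairs. With the replicate block 481 genes, 2 members and 4 other pathway genes were called. Allowing 1 mismatch in the outer 6 bases of the half-site left 3 member promoters with a match, against 38.0% of all promoters. Perp rested on 73 counts over 6 libraries and Ddb2 on 257. The coefficient of variation of Perp was 21.5% in NC and 48.3% in si-hnrnpa2b1 libraries, against 35.4% and 24.7% from counting alone. That of Ddb2 was 30.04% and 25.2%, against 14.2% and 16.7%.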

Other observations

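Paralogs and partners of the members, chosen after the members' values were seen, did not pass edgeR's test. Of the Gadd45 family, Gadd45b held 18.9 ± 1.96 and 18.6 ± 0.604 CPM in NC and si-hnrnpa2b1 (SD, n = 3), with a log2 fold change of -0.02 ± 0.10 (SE), and Gadd45g gave -0.29 ± 0.11, against 0.44 ± 0.07 for Gadd45a. Whether the 3 paralogs differ from one another was not tested. Phlda1, a relative of Phlda3, held 24.6, 29.7 and 22.3 CPM in NC and 30.3, 29.7 and 27.8 CPM in si-hnrnpa2b1 libraries (log2 0.20 ± 0.10, SE; edgeR adjusted p = 0.31).

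Beside Bax, its fellow pore-former Bak1 held 204 ± 11.8 and 206 ± 16.1 CPM (SD, n = 3). Bcl2l1, which encodes the anti-apoptotic Bcl-xL, held 64.4, 68.4 and 58.9 CPM in NC and 82.9, 72.5 and 70.2 CPM in si-hnrnpa2b1 libraries, without overlap (log2 0.24 ± 0.08, SE; edgeR adjusted p = 0.086). Its model overlaps another holding 2613 counts against 6046 for Bcl2l1. Ddb1, the partner of Ddb2 in damage recognition, held 822 ± 55.1 and 801 ± 29.1 CPM (SD, n = 3).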
